A study of Mus musculus with 2 samples.

Results

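Retinoic acid is made from vitamin A and is cleared by oxidation within the same tissue. The 9 mouse genes described here belong to some of these steps or to the response, and none stands for the oxidation of retinol to retinal. They were chosen by name: *Aldh1a1*, *Aldh1a2* and *Aldh1a3* for synthesis, *Rbp4*, *Rbp7*, *Crabp1* and *Crabp2* for transport and binding, *Cyp26b1* for breakdown, and *Rarb* as a receptor and response gene. All 9 of them were among the 29924 gene names on the array, and 11 of its 39429 probes measured them, 3 for *Rarb* and 1 for each of the others. The RNA came from ureters of newborn (P0) wildtype NMRI mice, cultured on transwell membranes for 18 h in medium with serum. One group received 5 µM IWP-2, which inhibits PORCN, the enzyme that lipidates WNT ligands before their secretion, and the control group received DMSO at a dilution of 1:1000. A two-colour array carried 1 pooled control and 1 pooled treated sample, and 2 such arrays were hybridised, with female pools in replicate 1 and male pools in replicate 2. The control RNA was green and the treated RNA red on the female array, and the dyes were exchanged on the male array, so sex and dye orientation cannot be told apart.

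Retinol travels in blood on RBP4, enters cells partly through the receptor STRA6, and is oxidised first to retinal and then, by the ALDH1A enzymes, to retinoic acid. Inside the cell, RBP7 binds retinol and the CRABP proteins bind retinoic acid, which either reaches a retinoic acid receptor in the nucleus or is hydroxylated by CYP26 enzymes. The receptors sit with an RXR partner on paired core sites in the DNA, and *Rarb* is the classic gene that such an element switches on. In the ureter, ALDH1A2 protein marks the lamina propria, the connective tissue layer under the urothelium. The comparison addresses what WNT inhibition does to RNA levels in pooled whole ureters, not in that layer alone.

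The element in *Rarb* is shown because it makes this gene a readout of the pathway. RefSeq's promoter table (GRCm38.p6) held a window for 7 of the 9 genes. The following 250 bases precede the *Rarb* start on the minus strand, chr14:16575477-16575726, with the direct repeat of 2 core sites spaced by 5 bases (DR5) in capitals.
Rarb: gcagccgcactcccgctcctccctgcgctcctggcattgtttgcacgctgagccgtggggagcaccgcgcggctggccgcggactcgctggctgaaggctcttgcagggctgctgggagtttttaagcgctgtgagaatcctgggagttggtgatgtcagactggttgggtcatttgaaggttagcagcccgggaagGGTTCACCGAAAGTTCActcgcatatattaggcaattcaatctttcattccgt
The repeat begins 53 bases and ends 37 bases before the start, and consists of GGTTCA, a 5-base spacer and AGTTCA. The core sites searched on both strands were AGGTCA with its variant AGTTCA, as well as GGGTCA with its variant GGTTCA, and 32 of the 32851 promoter windows of 300 bases (0.0974%) held a DR5 of them. Among the 7 genes with a window, *Rarb* was the 1 with a match. The same core sites spaced by 2 bases or by 1 base were found in 0 of the 7 genes (0.268% and 0.222% of all windows). CTTTGAT, a motif of the WNT-responsive TCF factors, was found on either strand in 1 of them, *Rbp4* (3.73% of all windows). A match of letters is a description of the window and not a measured binding site.

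The array probes are 60 bases long, and the first 30 bases are shown for the genes on which the results turn, with the place of the whole probe in mm9. *Aldh1a2* was read at chr9:71143931-71143990 on the plus strand, *Rbp7* at chr4:148823823-148823882 on the minus strand, and *Rarb* on the minus strand at chr14:17263367-17263426 (probe 1), chr14:17264648-17264707 (probe 2) and chr14:17651424-17651483 (probe 3).
Aldh1a2: aaccagctagctcccttcaacccacagtat
Rbp7: ttgtcattggaaagatgtcacacagcctgt
Rarb probe 1: gctttctatgttcatatactgtttaccttt
Rarb probe 2: aattctgaaggacatgaacccttgacccca
Rarb probe 3: tattgagcctgtttgcacacactcaccacc
The array's annotation assigned *Rarb* probes 1 and 2 to 4 RefSeq transcripts each and probe 3 to 2. Whether the probes lie in coding or untranslated exons was not determined here.

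The WNT target *Axin2*, a check of the inhibitor, fell from 181 to 42.2 on the female array and from 154 to 46.7 on the male array (mean log2 ratio −1.91, standard error 0.0994, limma adjusted p = 0.000824). The transcript of the inhibited enzyme itself, *Porcn*, read 1791 and 1696 on the female array and 1920 and 1915 on the male array in control and treated RNA. Signals are loess-normalized intensities on a linear scale, and ratios are log2 of IWP-2 over control within an array. Between 68.8% and 70.3% of the probes were well above background in each channel, as were all member probes except *Rarb* probe 3, and no spot of a member was saturated (0 spots). The number of arrays limits the precision, and nothing in the labels says that the pools came from separate litters. P-values, standard errors and intervals from limma therefore speak for these 2 arrays alone. They weigh a gene's own spread (1 residual degree of freedom) with a spread estimated from all genes tested (prior degrees of freedom 5.488). Most of the weight lies on the shared spread, so they are no measure of a gene's own spread between the arrays.

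Of the 9 genes, *Aldh1a2* was lower and *Rbp7* was higher in IWP-2-treated ureters by limma (adjusted p under 0.05, 14336 genes tested), and the other 7 did not pass. Limma called 127 genes (0.886%) lower and 52 (0.363%) higher in all, or 108 and 85 when the arrays were median-centred in place of loess. By the study's filter, a control signal above 100 and a change of at least 1.5-fold in the same direction on both arrays, *Rbp7* was higher and no member was lower (0 of 9). That filter held for 51 (0.363%) lower and 11 (0.0783%) higher genes of 14051. The study states the signal and fold limits for genes with reduced expression. The demand on both arrays and the same rule for higher genes were set here. These counts come from signals reprocessed here and are not the counts that the study reported. At an unadjusted limma p under 0.05, 4 members were lower and 3 were higher, and so were 952 (6.64%) and 899 (6.27%) of all genes tested. The median of the members' mean log2 ratios was 0.09, the value of *Cyp26b1*, while their median was −0.12 on each array taken alone, and over all genes tested the median was −0.01. The members did not move one way: 4 were below 0 on both arrays, 3 were above 0 on both, and 2 had opposite signs.

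**Figure D1:**
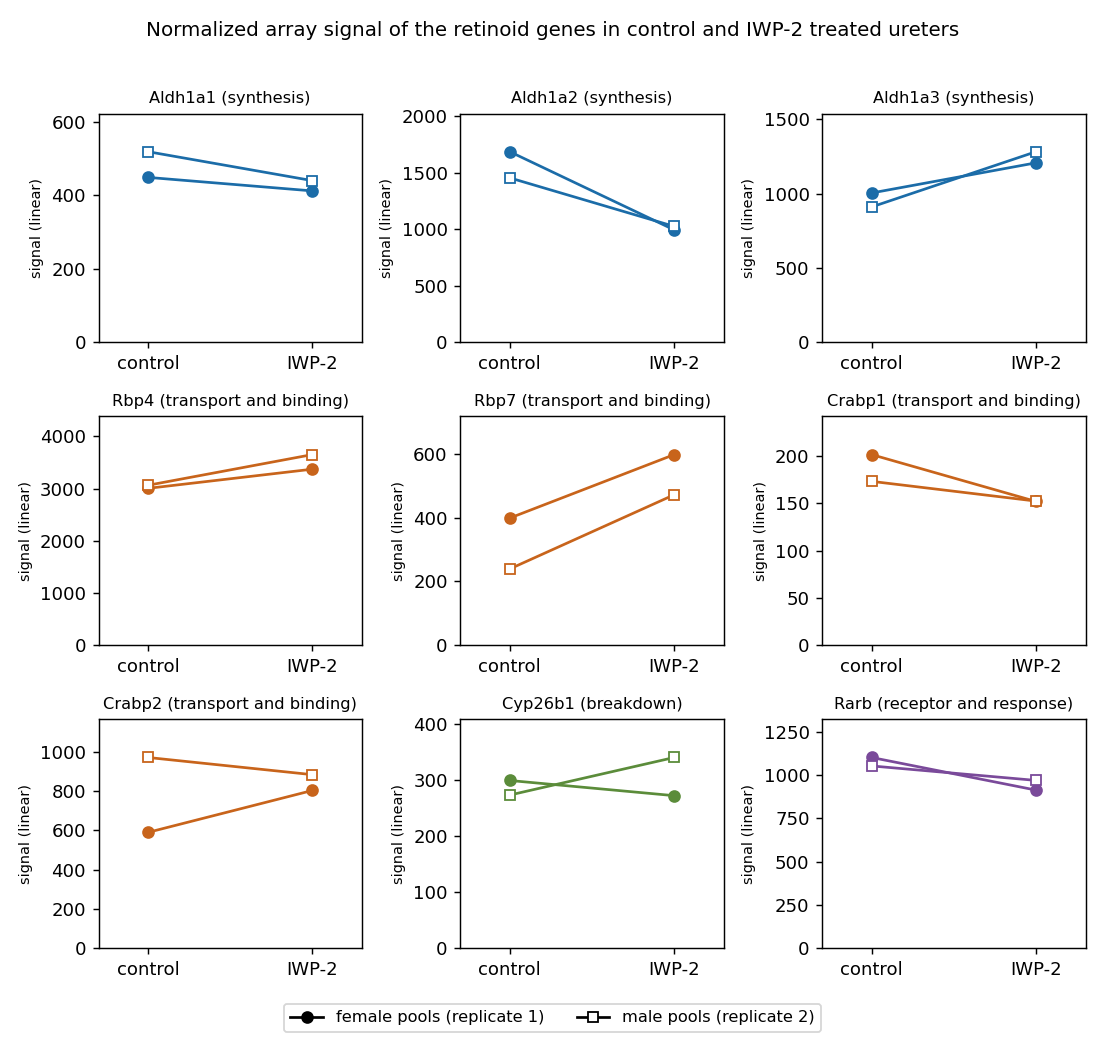
Normalized signal (linear axis from 0, arbitrary units) of the 9 genes in control and IWP-2-treated ureters, with filled circles for the female pools, open squares for the male pools and lines joining the pools of an array. *Aldh1a2* falls and *Rbp7* rises on both arrays, while the lines of *Crabp2* and of *Cyp26b1* run in opposite directions.

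The synthesis enzymes differed among themselves. *Aldh1a2*, the main retinaldehyde dehydrogenase of embryonic mesenchyme, read 1688 in control and 995 in treated RNA on the female array, and 1456 and 1026 on the male array. Both treated pools lay below both control pools, at 58.9% and 70.5% of the control on their own array. The log2 ratios were −0.76 and −0.50, with a mean of −0.63 ± 0.18 (SD, n = 2), a 1.55-fold lower level (standard error 0.0836, 95% interval −0.83 to −0.43, limma adjusted p = 0.0280). The change was 1.70-fold on the female array and 1.42-fold on the male array, so the male array kept *Aldh1a2* out of the study's filter. In the order of mean log2 ratios, *Aldh1a2* was number 65 from the lowest of 14336 genes. The 4 spots of its probe ranged from −0.87 to −0.62 on the female array and from −0.52 to −0.48 on the male array.

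*Aldh1a3*, an enzyme of the same step with epithelial expression in many organs, had higher readings after treatment. Its signal was 1004 in control and 1207 in treated RNA on the female array, and 910 and 1282 on the male array, with no overlap between the groups. The mean log2 ratio of 0.38 ± 0.16 (SD, n = 2; 95% interval 0.19 to 0.57) did not pass (limma adjusted p = 0.103). *Aldh1a1*, the third enzyme, read 448 and 411 on the female array and 518 and 439 on the male array. Its treated readings lay just below its controls, and the mean log2 ratio of −0.18 ± 0.08 (SD, n = 2; 95% interval −0.35 to −0.01) did not pass either (limma adjusted p = 0.342).

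Among the binding proteins, *Rbp7* rose. This small intracellular retinol-binding protein, known from fat and endothelium, read 399 in control and 598 in treated RNA on the female array, and 239 and 472 on the male array. Both treated pools lay above both controls, although the female control was 1.67 times the male control. The log2 ratios were 0.59 and 0.98, with a mean of 0.78 ± 0.28 (SD, n = 2), a 1.72-fold higher level (standard error 0.102, 95% interval 0.54 to 1.03, limma adjusted p = 0.0273). *Rbp7* was number 25 from the highest of 14336 genes by mean log2 ratio. The change was 1.97-fold on the male array, and on the female array it met the 1.5-fold limit of the study's filter with almost nothing to spare. It missed the filter when flagged spots were kept, without normalization beyond the deposited signals, and with normexp background correction.

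*Rbp4*, the carrier of retinol in blood, read 3005 and 3373 on the female array and 3064 and 3653 on the male array. The groups did not overlap and the arrays differed little, but the mean log2 ratio of 0.21 ± 0.06 (SD, n = 2; 95% interval 0.05 to 0.38) was small and did not pass (limma adjusted p = 0.243). *Crabp1*, which binds retinoic acid in the cytoplasm, read 201 and 152 on the female array and 173 and 152 on the male array. Its treated readings were nearly equal between the arrays, and its mean log2 ratio was −0.30 ± 0.16 (SD, n = 2; limma adjusted p = 0.164).

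*Crabp2*, which delivers retinoic acid to the receptors, gave no common direction. It read 590 in control and 804 in treated RNA on the female array, and 972 and 884 on the male array, so the female control stood below the other 3 pools. The log2 ratios were 0.45 and −0.14 (mean 0.15, 95% interval −0.16 to 0.47, limma adjusted p = 0.809). *Cyp26b1*, which hydroxylates retinoic acid, had opposite signs too, with 299 and 272 on the female array and 273 and 340 on the male array. Here the groups overlapped, and the log2 ratios were −0.14 and 0.32 (mean 0.09, 95% interval −0.18 to 0.36, limma adjusted p = 0.916).

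**Figure D2:**
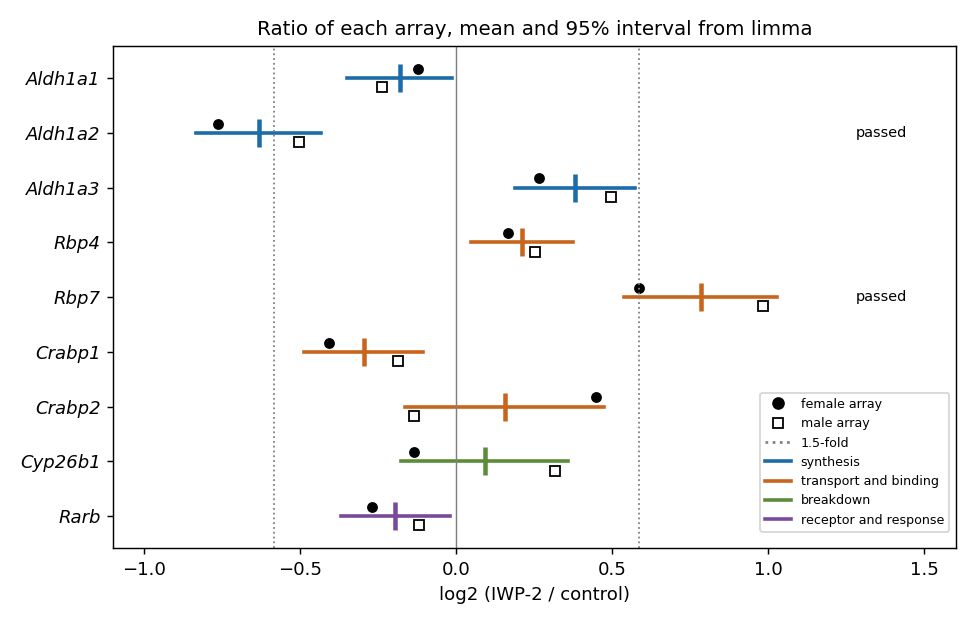
Log2 ratio of IWP-2 over control for each gene on the female array (filled circles) and the male array (open squares), with the mean (tick) and its 95% interval from limma (bar, coloured by role). Dotted lines mark 1.5-fold, and the intervals of *Aldh1a2* and *Rbp7*, the genes that passed, lie farthest from 0.

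*Rarb* was read by 3 probes. Which of them read transcripts that begin at the start after the DR5 element shown above was not determined. Probe 1, the brightest, gave 1103 in control and 914 in treated RNA on the female array, and 1054 and 970 on the male array. The log2 ratios of −0.27 and −0.12 had a mean of −0.20 ± 0.11 (SD, n = 2; 95% interval −0.37 to −0.02), which did not pass (limma adjusted p = 0.319). Probe 2 gave 237 and 240 on the female array and 232 and 221 on the male array, with log2 ratios of 0.02 and −0.07. Probe 3, assigned to 2 transcripts, lay at the floor of 15 in all 4 channels and was not well above background in any. Probe 2 did not show the lower treated readings of probe 1 on the female array.

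Both treated signals lay outside the range of both controls for 7 of the 9 genes, 4 lower (*Aldh1a1*, *Aldh1a2*, *Crabp1* and *Rarb*) and 3 higher (*Aldh1a3*, *Rbp4* and *Rbp7*). The same was true of 31% of all genes tested. Signals were normalized within each array and not scaled between the arrays, so such ranges also hold differences between the arrays.

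**Figure D3:**
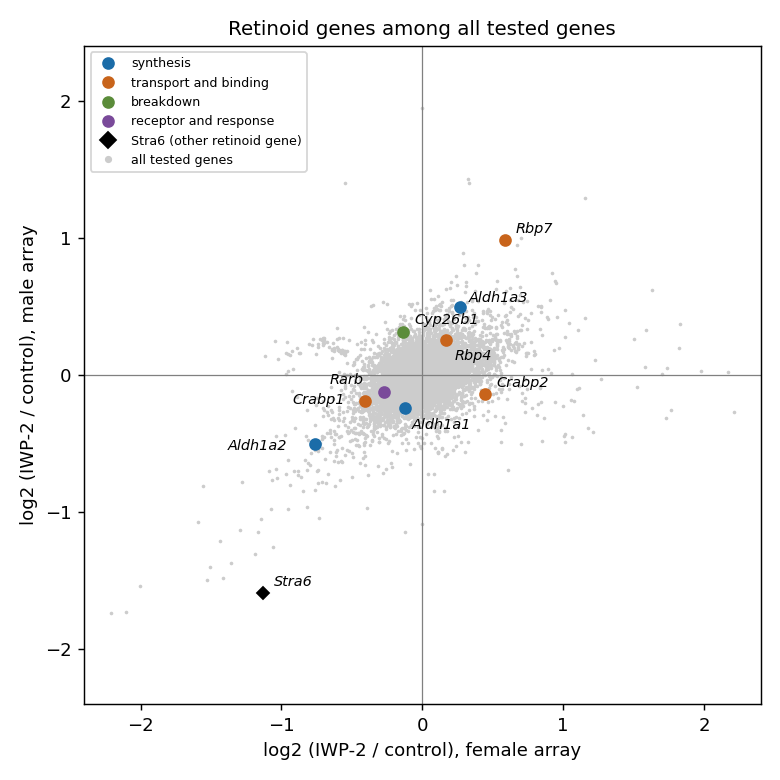
Log2 ratio of IWP-2 over control on the female array (horizontal) and the male array (vertical) for the 9 genes (coloured by role), *Stra6* (black diamond) and all tested genes (grey; 7 lie outside the window). *Aldh1a2* and *Stra6* lie low on both arrays and *Rbp7* high on both, while *Crabp2* and *Cyp26b1* lie in the quadrants of opposite sign.

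Beyond the 9 genes, 77 names of the retinoid pathway were listed, of which 75 were on the array and 50 were bright enough to be tested. Limma called 1 of the 50 lower and 0 higher, against 4 and 7 at an unadjusted p under 0.05 (6.64% and 6.27% of all genes tested), and the study's filter gave 1 lower and 0 higher. The median log2 ratio of the 50 was 0.01. The gene that fell was *Stra6*, the cell-surface receptor that takes up retinol from RBP4. It read 107 in control and 48.6 in treated RNA on the female array, and 105 and 34.9 on the male array. Both treated pools were far below the controls, with log2 ratios of −1.13 and −1.59 and a mean of −1.36 ± 0.32 (SD, n = 2; limma adjusted p = 0.00605). Its controls stood just above the signal minimum of 100, and it was no longer tested when the minimum was 200. With the 4 channels unpaired its limma adjusted p was 0.542, with no minimum 0.754 and with detection in place of the minimum 0.449.

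In the roles without a call, the gene with the brightest control is given for all but the cofactors. *Adh1*, an alcohol dehydrogenase that oxidises retinol, stood for the 15 tested oxidation and reduction genes, with a mean log2 ratio of 0.23 (limma adjusted p = 0.309). The median of these 15 genes was 0.06. Limma called 0 of them, and at an unadjusted p under 0.05 it had 0 lower and 3 higher (6.64% and 6.27% of all genes tested). *Cyp2s1* was the single breakdown gene tested (0.18), because *Cyp26a1* and *Cyp26c1* lay at the floor in all channels. *Fabp5*, which carries retinoic acid to PPARD, had the largest mean among the 7 receptor and delivery genes (0.41, limma adjusted p = 0.149), and their median was −0.01. The 9 cofactors had a median of −0.04, and limma called 0 of them (1 lower and 0 higher at an unadjusted p under 0.05). Of 20 genes known to be induced by retinoic acid, 11 were tested, their median was 0.06 and limma called 0 of them (1 lower and 0 higher at an unadjusted p under 0.05). *Foxa1*, the brightest, gave 0.06 (limma adjusted p = 0.907).

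**Figure D4:**
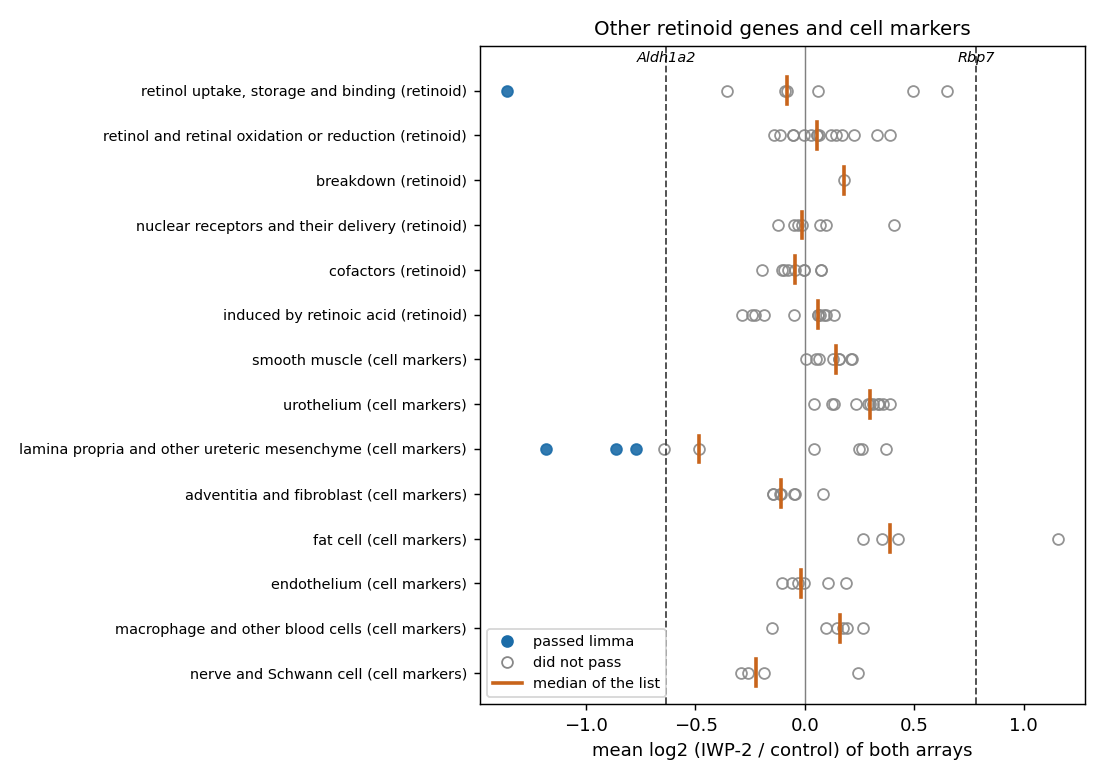
Mean log2 ratio of IWP-2 over control for each tested gene of the other retinoid roles and of the cell marker lists, filled where limma called the gene, with the median of each list as a bar and the values of *Aldh1a2* and *Rbp7* as dashed lines. *Stra6* and 3 markers of the lamina propria and other ureteric mesenchyme are the filled points, all below 0.

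Cell markers were set beside these changes, since in pooled tissue fewer cells of a type and less RNA per cell cannot be told apart. All 8 smooth muscle and all 11 urothelial markers were bright enough to be tested, and 0 of 8 kidney epithelium markers were. Limma called 0 smooth muscle (median log2 ratio 0.14), 0 adventitia and fibroblast (−0.11), 0 macrophage and blood (0.16) and 0 nerve and Schwann cell markers (−0.22). The medians on the female and male arrays were 0.00 and 0.24 for smooth muscle and −0.30 and 0.05 for nerve and Schwann cells. At an unadjusted p under 0.05 these lists held 2 lower and 4 higher genes. For every marker list, the shares to compare are those of all genes tested. Limma called 0.886% of these lower and 0.363% higher, and 6.64% were lower and 6.27% higher at an unadjusted p under 0.05. *Aldh1a2* was set beside 9 markers of the lamina propria and other ureteric mesenchyme, of which limma called 3 lower (*Ahr*, *Avpr1a* and *Itga4*). The study had picked these 3, with *Thy1* and *Car3*, from genes lowered in its arrays, the present ones included. It then mapped them to the lamina propria, so their lower values here are no independent observation. The list was not uniform, since *Foxf1* (log2 ratios 0.20 and 0.54), *Ptch1* (0.03 and 0.49) and *Tbx18* (0.12 and 0.37) were above 0 on both arrays without passing, and at an unadjusted p under 0.05 it held 5 lower and 2 higher genes. The summed signal of that list was 40720 and 29040 in control and treated RNA on the female array, and 30970 and 28620 on the male array, and the list's part in the *Aldh1a2* result was not tested. The 11 urothelial markers, set beside *Aldh1a3*, summed to 117800 and 154500 on the female array and to 144800 and 154100 on the male array. Their median log2 ratio was 0.30, limma called 0 of them (8 higher at an unadjusted p under 0.05), and their part in the *Aldh1a3* values was not tested.

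Fat cell markers were set beside *Rbp7*, and 4 of the 7 were tested with 0 calls by limma (2 higher at an unadjusted p under 0.05), with *Cidec* and *Lep* at the floor in all channels. Their summed signal was 17630 and 21530 on the female array and 18820 and 23020 on the male array, most of it from *Fabp4* and *Pparg*. Which cells of the ureter gave the signal of *Fabp4* and *Pparg* was not tested, so the sum is no measure of fat cells alone. The log2 ratios on the female and male arrays were 0.25 and 0.28 for *Fabp4* and 0.45 and 0.26 for *Pparg*. They were −0.55 and 1.40 for *Adipoq* and −0.87 and 3.19 for *Cfd*, whose signs differed between the arrays. The 6 tested endothelial markers, the other known site of *Rbp7*, had a median of −0.02 with 0 calls by limma (1 higher at an unadjusted p under 0.05) and summed over 7 markers to 19850 and 18250 on the female array and to 17600 and 18430 on the male array. The part of fat and endothelial cells in the *Rbp7* result was not tested.

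The calls of *Aldh1a2* and *Rbp7* had the same limits. Both were lost when the 4 channels were treated as unpaired samples (limma adjusted p = 0.416 and 0.705), when probes were averaged per gene (0.0643 and 0.0720), and when no signal minimum was set (0.795 and 0.850) or detection took its place (0.450 and 0.467). *Rbp7* was also lost with an intensity trend in limma (adjusted p = 0.840). In all these settings the mean log2 ratios stayed at −0.63 for *Aldh1a2* and 0.78 for *Rbp7*, also with averaging, since each has 1 probe. What changed was the variance estimate, the set of genes tested, or both.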

How the data were processed

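The authors deposited 2 Agilent scanner files with background-subtracted, dye-normalized intensities (Feature Extraction 12.2.0.7 in the file header, 10.7.3.1 in the submitters' processing notes), the mean and background intensities, and log10 ratios of red over green, and 100% of the nonzero log10 values matched those signals to within 0.001. They also deposited a score per probe and array, a signed fold with 1 decimal (column medians 1 and 1), whose direction and scale were settled by comparison with the arrays (r = 0.977 and 0.958 across 17818 bright probes, which are not independent) and whose centring stays unknown. Other per-sample columns numbered 0.

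Control spots (17263) and flagged spots (3.32% and 3.22%) were left out. Signals were loess-normalized within each array (span 0.3), averaged over up to 4 spots per probe, raised to a floor of 15 where lower, and log2-transformed. The brightest probe stood for a gene. Ratios were turned to IWP-2 over control and tested against 0 with limma 3.58.1 (R 4.3.3; lmFit and eBayes, 1 residual degree of freedom, Benjamini-Hochberg over every gene whose mean signal exceeded 100 in control or treated RNA). The pools of an array are paired by construction. Slide and replicate cannot be told apart. The loess step and the limma test were tried on simulated ratios of genes, and the other steps were not simulated.

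The text names all 9 members with every probe, every other retinoid gene that was called, the gene with the brightest control in each role without a call, *Axin2* and *Porcn*, except 1 gene that is not reported here. Members and lists, cell markers included, were chosen with earlier results of these data known. The cell markers named singly, *Cyp26a1*, *Cyp26c1*, *Ttr*, *Lpl* and the genes of the closing observations were named after their values were seen. Alternatives covered flags, normalization, background, floor, probe summary, signal minimum, fold, pairing, the variance trend, single arrays and the deposited table. Probe positions are those of the array files (mm9).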

Additional observations from a re-analysis of the deposited data

Results flagged for a closer look

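*Crabp2* and *Cyp26b1* moved in opposite directions on the female and the male array, by at least 0.1 on the log2 scale on each. For *Crabp2* the log2 ratio was 0.45 on the female and −0.14 on the male array, a difference of 0.58. For *Cyp26b1* it was −0.14 and 0.32, a difference of −0.45. With 1 array of each sex these differences were not tested, and sex and dye orientation cannot be told apart. Of all genes tested, 800 (5.58%) had opposite signs with at least 0.1 on each array, and 45.2% had opposite signs of any size.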

How the results depend on the processing

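No member changed sign under the alternatives that used both arrays, and none reversed. The members called by limma, 1 lower (*Aldh1a2*) and 1 higher (*Rbp7*), became 0 and 0 with the mean of all probes, with no signal minimum, with well-above-background detection in its place, and with no replicate block (the 4 channels unpaired), and the higher count also became 0 with a variance trend. By the study's filter the 1 higher member became 0 with flagged spots kept, without normalization, with normexp or at 2-fold, and the 0 lower members became 1 (*Aldh1a2*) without replicate 2 (range 0 to 1 over single arrays). Among the other retinoid genes, the 1 called lower (*Stra6*) became 0 with a minimum of 200, no minimum, detection, or no replicate block. The 0 called higher became 1 with median centring (*Ttr*) and 2 with normexp (*Lpl* and *Ttr*). On single arrays the filter gave 1 to 2 lower and 1 to 2 higher other retinoid genes. In the deposited table, which allows no test, the mean log2 ratio was −0.67 for *Aldh1a2* and 0.76 for *Rbp7*.

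Over all genes, limma's 127 lower and 52 higher calls became 85 and 32 without normalization, 257 and 170 with normexp, 50 and 17 with the mean of all probes, and 134 and 0 with a trend (1004 and 869 at an unadjusted p under 0.05). They became 1 and 0 without the pairing (558 and 401 unadjusted), 0 and 0 with no minimum (1149 and 879 unadjusted) and 0 and 0 with detection (1236 and 960 unadjusted). The filter's 51 and 11 became 19 and 0 at 2-fold, 89 and 25 with detection of the control, 78 and 25 on the male array alone and 160 and 112 on the female array alone. The causes were not tested. With 2 arrays, signal over background did not limit the members, apart from *Rarb* probe 3.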

Other observations

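*Ttr*, which carries RBP4 in blood, read 717 in control and 1328 in treated RNA on the female array, and 818 and 1088 on the male array (mean log2 ratio 0.65, limma adjusted p = 0.0633). *Lpl*, which helps cells to take up retinyl esters from lipoproteins, gave log2 ratios of 0.31 and 0.68 with its brighter probe and 0.39 and 0.51 with its other probe (limma adjusted p = 0.0885 for the brighter).

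3 retinoid genes best known from the retina differed more between the arrays than between the treatments. *Rbp3* read 902 and 1127 in control and treated RNA on the female array, and 2810 and 2006 on the male array. *Rdh12* read 648 and 715, then 1712 and 1329. *Rxrg* read 498 and 536, then 1421 and 1111, with its brighter probe, while its other probe lay at the floor of 15 in all 4 channels, although the scanner software marked it as well above background in all 4. The photoreceptor genes *Sag* and *Crx* also lay at the floor in all 4 channels, and *Sag* was marked as well above background in 2 of them and *Crx* in 0. What the probes of *Rbp3*, *Rdh12* and *Rxrg* read in ureter was not tested.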
